A study of Mus musculus with 3 samples.

Results

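The stretch described here is the Zfp608 locus, a window of 600 kb on mouse chromosome 18 from 54850000 to 55450000 (mm9), in which 3 lists of open chromatin sites hold 100 of their 172496 sites. The window was chosen by measured values of these same lists, namely the number of sites that all 3 hold in it, and a site belongs to it when its midpoint lies inside. Its density of shared sites, the overlap of the lists in it and the tag counts there are therefore a description and were not tested. Zfp608 itself runs from about 55150000, its 5′ end, to about 55048000 on the minus strand, so that higher coordinates lie upstream of it, and its introns and exons were not placed here. Positions below are given in kb from this approximate 5′ end.

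Zfp608 encodes a zinc finger protein of the nucleus, whose close relative is Zfp609. In mouse thymocytes it is known as a repressor of the recombination genes Rag1 and Rag2, and its human counterpart, ZNF608, lies in a chromosomal region that association studies link to body mass index. DNase I cuts DNA that is not covered by nucleosomes, so a hypersensitive site marks a place where regulatory proteins can bind. Such sites lie at the starts of active genes and, far more often, at distant elements such as enhancers and insulators, which can act on genes a long way off. The assay does not show which gene a site acts on. In the RefSeq table of GRCm38.p6, used here for the order of genes alone, the non-coding genes Gm33732 and Gm4221 adjoin Zfp608 on its 3′ and 5′ sides, and Gm4221 overlaps the Zfp608 gene model. The nearest protein-coding genes are Csnk1g3, a casein kinase gene, on the 3′ side and Gramd3 on the 5′ side.

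The study used DNase-seq on cultured fat cells derived from brown fat (BAT, pooled from interscapular, cervical and axillary depots), inguinal white fat (iWAT, under the skin) and epididymal white fat (eWAT, in the abdomen) of male NMRI mice of 4 to 5 weeks. In all 3 groups the stromal-vascular cells, which include fat cell precursors, were differentiated in culture with 30 nM insulin, 10% newborn calf serum and 1 µM rosiglitazone, an activator of the fat cell regulator PPARγ, and were harvested on day 8. Cultures had to hold more than 50% differentiated cells, so other stromal cells were present as well. There was 1 library per depot and no replicate, so that every difference below is between single libraries, has no error but that of counting, and was not tested. The lists hold no expression values, and the depot labels were not checked against marker genes here. A bulk library also cannot tell a site that is open in fewer cells from one that is less open in each.

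The BAT list holds 48308 sites, the iWAT list 63214 and the eWAT list 60974, each site 222, 222 or 220 bp wide. For each site the authors give a tag count normalized to a library total that the lists do not state. Within the rounding of the files, values under 30 are whole multiples of 1 step per library (0.857 in BAT, 0.985 in iWAT and 0.595 in eWAT), which is what 1 tag is worth. Tags below are such steps, and the rank percentile of a site is its place by tag count in its own list, from 0 for the weakest to 100 for the strongest, with ties at their mean. The median site holds 14 tags in BAT, 14 in iWAT and 16 in eWAT. Normalized tags are offset between the lists, as seen over the 24988 merged regions with 1 site in each list. Their median log2 ratio there was -0.32 for BAT over iWAT, 0.28 for BAT over eWAT and 0.60 for iWAT over eWAT. Normalized tags set side by side below carry this offset, while ratios centred on such a median (below) do not.

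Within the window BAT listed 29 sites, iWAT 40 and eWAT 31. This is 4.83, 6.67 and 5.17 sites per 100 kb, against 1.88, 2.46 and 2.37 over the whole span of the lists. Sites that overlap or touch were merged into 45 regions. Of these, 22 were listed in all 3 depots (48.9%, 95% exact binomial interval 33.7 to 64.2), against 25.2% of the 99297 regions of the whole series. Another 11 were listed in exactly 2 depots (24.4%, against 23.3% of all regions) and 12 in a single depot (26.7%, against 51.5%). On a grid of 600 kb windows over the genome, the median of the 4108 windows that hold any region had 5 common regions and 22 regions in all. At least 22 common regions were found in 45 of these windows (1.095%). The grid was aligned to the locus, which is itself among them. Since the locus was chosen for this count, the share is a description and not a test.

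**Figure D1:**
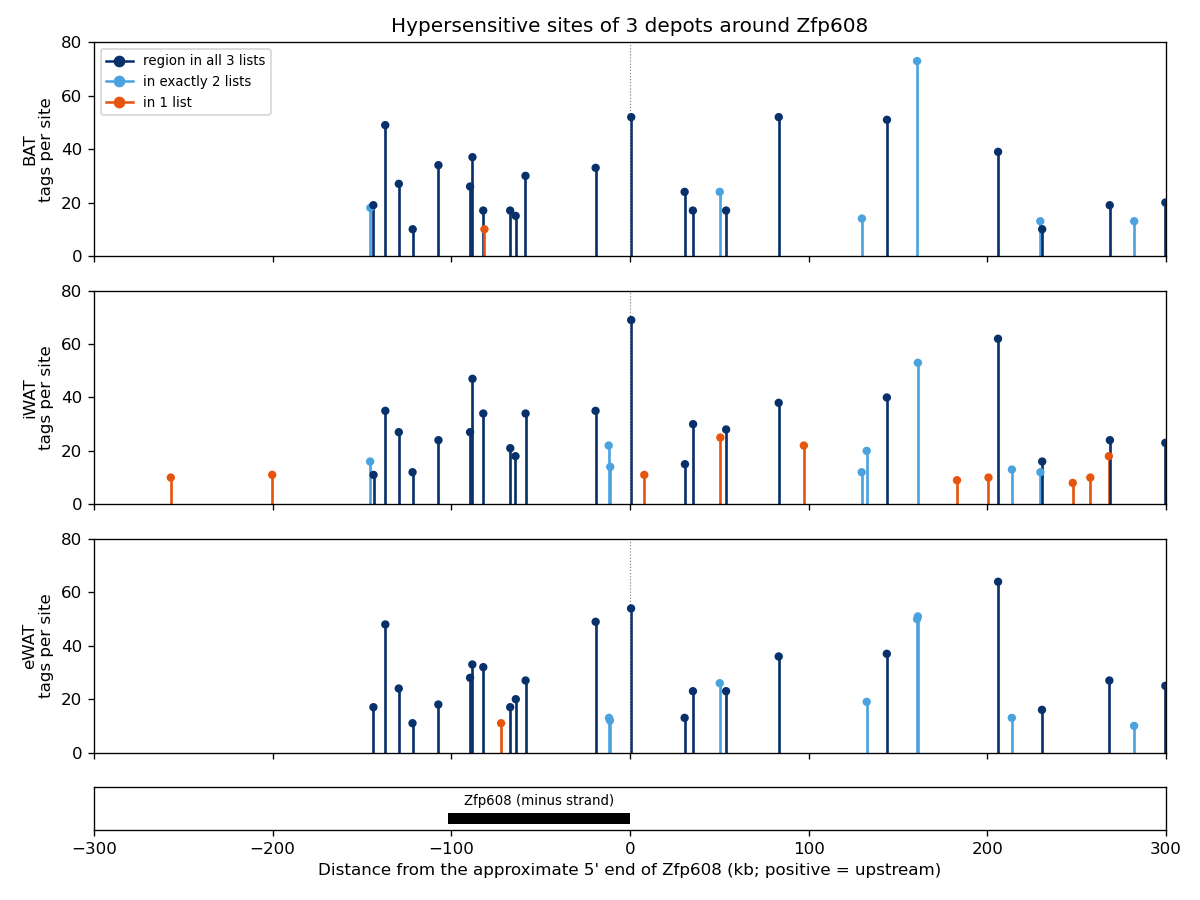
Sites of the BAT, iWAT and eWAT lists by distance from the approximate 5′ end of Zfp608 (x axis, kb, positive upstream) and by tags per site (y axis, in steps of the normalized tag count, 1 library per depot), with the gene as a bar. Dark blue marks the 22 common regions, light blue the 11 regions of exactly 2 lists and orange the 12 regions of 1 list, of which 10 are in iWAT.

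The sites were not spread evenly over the window. More than 150 kb on the 3′ side of the 5′ end lay 2 regions only, both weak sites of iWAT, and the other 43 regions filled 445 kb from there to the upper end of the window. The 102 kb of the gene held 7 common regions among 11, or 6.86 per 100 kb. The 300 kb upstream held 10 among 26, or 3.33 per 100 kb, and the 198 kb beyond the 3′ end held 5 among 8, or 2.53 per 100 kb. The median gap between neighbouring regions was 8.28 kb, with a range from 0.061 to 56.5 kb. Of all tags in the sites of the locus, the upstream part held 56.2% in BAT, 58.8% in iWAT and 57.5% in eWAT. The gene body held 23.7%, 26.1% and 28.6%, and the 3′ side 20.1%, 15.1% and 13.9%, in the same order of depots, so that the 3′ side took its largest share in BAT.

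Beyond the window, which was chosen for its number of common sites, the density of common regions was lower on both sides. The 600 kb below it held 6 common regions among 25, and the 600 kb above it 10 among 27. The last region inside the upper end, at 55449503 to 55449744, was common, with 17.1, 22.7 and 14.9 normalized tags in BAT, iWAT and eWAT. The first region outside, at 55456189 to 55456423, was listed in iWAT with 10.8 and in eWAT with 10.1 normalized tags. At the lower end the region inside, at 54892928 to 54893150, and the region outside, at 54835750 to 54835972, were both iWAT sites, with 9.85 and 8.87 normalized tags.

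Taken site by site, 22 of the 29 BAT sites of the locus overlapped a site of both other lists (75.9%, 95% interval 56.5 to 89.7, against 48.9% of the whole BAT list). In iWAT 21 of 40 sites did so (52.5%, 36.1 to 68.5, against 37.2%), and in eWAT 21 of 31 (67.7%, 48.6 to 83.3, against 38.6%). Intervals reflect counting error alone. Since the window was picked for common sites, the excess over the whole lists is part of the choice. The number is 21 rather than 22 in the white depots because 1 common region, at 55418184 to 55418705, is a chain in which the BAT site overlaps the site of each white depot while those do not overlap each other.

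**Figure D2:**
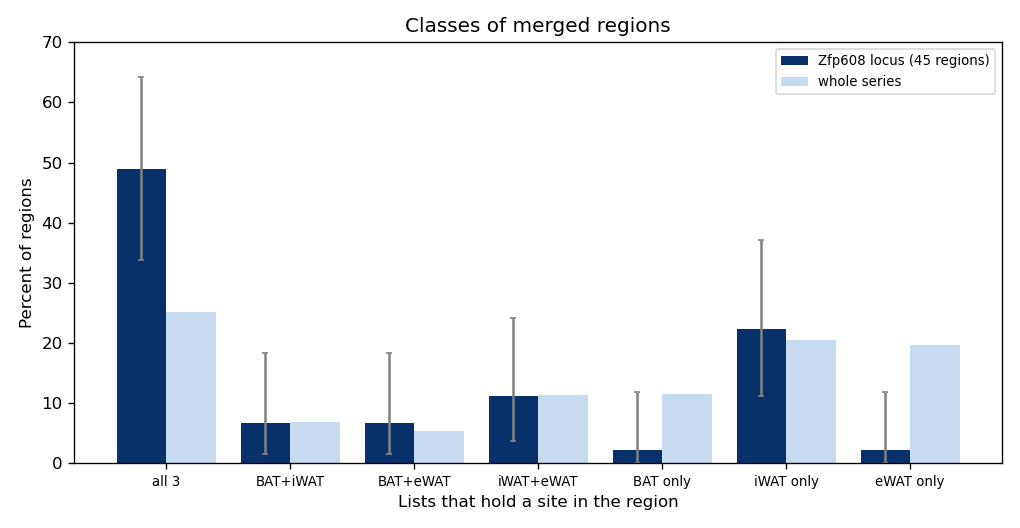
Percent of merged regions (y axis) in each of the 7 classes defined by the lists that hold a site (x axis), for the 45 regions of the Zfp608 locus in dark blue, with exact 95% binomial intervals for counting error as bars, and for the 99297 regions of the whole series in light blue. Common regions make up 48.9% against 25.2%, and regions listed in BAT alone or eWAT alone 2.22% each, against 11.4% and 19.6%.

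Sites of the locus also tended to stand high in their own lists. The median rank percentile was 72.4 in BAT, 76.3 in iWAT and 78.0 in eWAT, where a whole list has 50. The median site of the locus held 20 tags in BAT, 21.5 in iWAT and 24 in eWAT. Strong sites, meaning those above percentile 75, numbered 14 of 29 in BAT (48.3%, against 26.2% of the list), 21 of 40 in iWAT (52.5%, against 26.1%) and 18 of 31 in eWAT (58.1%, against 25.6%). The tag density of a site over its surroundings was close to that of the lists. Its median was 8.67 times in BAT, 10.1 in iWAT and 7.02 in eWAT, beside 9.23, 9.91 and 7.46 in the whole lists. The focus ratio, a measure of how sharply tags are centred in a site, had a median of 0.68, 0.684 and 0.647, beside 0.704, 0.704 and 0.688.

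The common regions gave most of the strong sites. Their median percentile was 83.0 in BAT, 86.6 in iWAT and 81.9 in eWAT. Over all sites found in both other lists the medians were 66.0, 72.6 and 73.1. Of the 22 common regions, 10 were above percentile 75 in every list (27.1% of all 24988 common regions with 1 site per list were) and 7 above percentile 90 in every list (10.5% of all). The midpoints of a common region lay 69 bp apart at the median over the 3 lists, against 73 bp in the whole series.

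The region beside the 5′ end of Zfp608 had the highest mean percentile of the locus. It lay at chr18:55150531-55150824, 0.678 kb upstream of the approximate 5′ end, and held 44.5 normalized tags in BAT, 68.0 in iWAT and 32.1 in eWAT. This placed it at rank 781 of the BAT list, 258 of the iWAT list and 832 of the eWAT list, so that it was among the highest 2% of sites in every depot. It stood only 6.44, 7.25 and 4.82 times above its surroundings, below the median of each list, with 52, 69 and 54 tags in the site itself. In the iWAT list it was the strongest site of the locus, while BAT and eWAT had stronger sites further upstream. After centring, the log2 ratio was -0.28 for BAT over iWAT (interval -0.83 to 0.26) and 0.20 for BAT over eWAT (-0.38 to 0.77). For iWAT over eWAT it was 0.48 (-0.06 to 1.02), so the intervals of all 3 pairs included 0. Because Gm4221 overlaps the gene model, the region cannot be credited to Zfp608 alone.

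The next region, at chr18:55355871-55356129, lay 206 kb upstream, far from the gene. It held 33.4 normalized tags in BAT, 61.1 in iWAT and 38.1 in eWAT, and stood at percentiles 95.1, 99.2 and 99.4. In eWAT it was the strongest site of the locus, with 64 tags and rank 364. After centring (below), BAT over iWAT was -0.54 (interval -1.16 to 0.06) and BAT over eWAT -0.46 (-1.08 to 0.13) on the log2 scale, both with intervals that include 0.

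Both remaining common regions of the far upstream part that reached percentile 90 in every list had their highest percentile in BAT. The region at chr18:55293637-55293948, 144 kb upstream, held 43.7 normalized tags in BAT, 39.4 in iWAT and 22 in eWAT, at percentiles 98.2, 95.5 and 93.5. The region at chr18:55233136-55233379, 83.3 kb upstream, held 44.5, 37.4 and 21.4, at percentiles 98.3, 94.6 and 92.9. In each the order of the percentiles was BAT, iWAT, eWAT, within a span of 4.66 and 5.38 points. After centring, the log2 ratios of BAT over iWAT were 0.48 (interval -0.15 to 1.11) and 0.58 (-0.05 to 1.22), with intervals that include 0. Those of BAT over eWAT left out 0 (below).

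Inside the gene, the region nearest the 5′ end at this level lay 19.2 kb into it, at chr18:55130642-55130919. It held 28.3 normalized tags in BAT, 34.5 in iWAT and 29.1 in eWAT, at percentiles 91.8, 93.0 and 97.8, so that eWAT ranked it highest. Towards the 3′ end lay a close pair. The region at chr18:55061683-55061997 held 31.7, 46.3 and 19.6 normalized tags in BAT, iWAT and eWAT and ranked highest in iWAT, at percentile 97.5. After centring, its log2 ratio of iWAT over eWAT was 0.64 (interval -0.04 to 1.32). The neighbour of this region, a gap of 1035 bp away, at chr18:55060417-55060648, held 22.3, 26.6 and 16.7 normalized tags. The percentiles of that neighbour, 84.5, 86.0 and 85.1, were nearly equal. Apart from this pair, 58.4 kb from the 5′ end, the region at chr18:55091436-55091714 held 25.7, 33.5 and 16.1 normalized tags, at percentiles 89.4, 92.4 and 83.6.

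Beyond the 3′ end, the strongest region lay at chr18:55012948-55013220, 137 kb from the 5′ end, with 42 normalized tags in BAT, 34.5 in iWAT and 28.5 in eWAT. Its percentiles were 97.9, 93.0 and 97.6, which makes it one of the 7 regions above percentile 90 in every depot, and it stood 18.2, 14.3 and 16.2 times above its surroundings. A region 129 kb from the 5′ end, at chr18:55020512-55020776, held 23.1, 26.6 and 14.3 normalized tags. Its tags stood 20.4, 20.9 and 14.2 times above the surroundings, which in BAT and iWAT is more than at any other site of the locus.

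**Figure D3:**
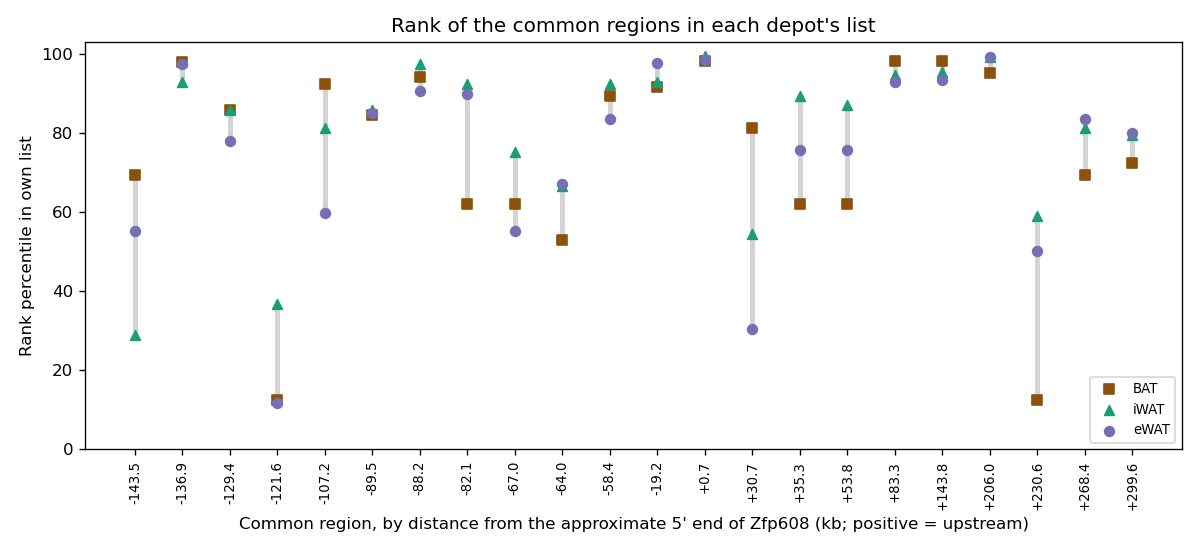
Rank percentile (y axis, 0 weakest to 100 strongest) of the 22 common regions in the lists of BAT (squares), iWAT (triangles) and eWAT (circles), ordered by distance from the approximate 5′ end of Zfp608 (x axis, kb, positive upstream), with a grey bar over the range. The bar is short where all ranks are high, and longest for the region 30.7 kb upstream, where it covers 51.0 points.

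The ranks of the 22 common regions were related between depots. Spearman's rho across these regions was 0.76 for BAT with iWAT, 0.76 for BAT with eWAT and 0.92 for iWAT with eWAT, beside 0.68, 0.66 and 0.73 over the 24988 common regions with 1 site per list. The regions share 3 libraries and are not replicates, so these values are a description. The span of the 3 percentiles had a median of 11.5 points in the locus and 21.6 in the whole series. High ranks leave less room for a span, and the regions of the locus ranked high.

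To set the depots against each other in spite of their different depth, the ratio of tags was taken per region and centred on its median over the 24988 common regions. An exact 95% binomial interval gives the counting error, with no adjustment for the 66 intervals (22 regions in 3 pairs). For BAT over iWAT no region of the locus was past 2-fold, against 5.54% of all common regions, and no interval left out 0, against 6.78%. For iWAT over eWAT likewise none was past 2-fold, against 3.67%, and no interval left out 0, against 4.93%. For BAT over eWAT 2 of 22 were past 2-fold, against 5.18% of all, and 4 intervals left out 0, against 6.87%. All 4 of these regions had more tags in BAT after centring. The common regions of the locus ranked higher in their lists than common regions at large. Counting intervals narrow with more tags, so these shares are not like for like.

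**Figure D4:**
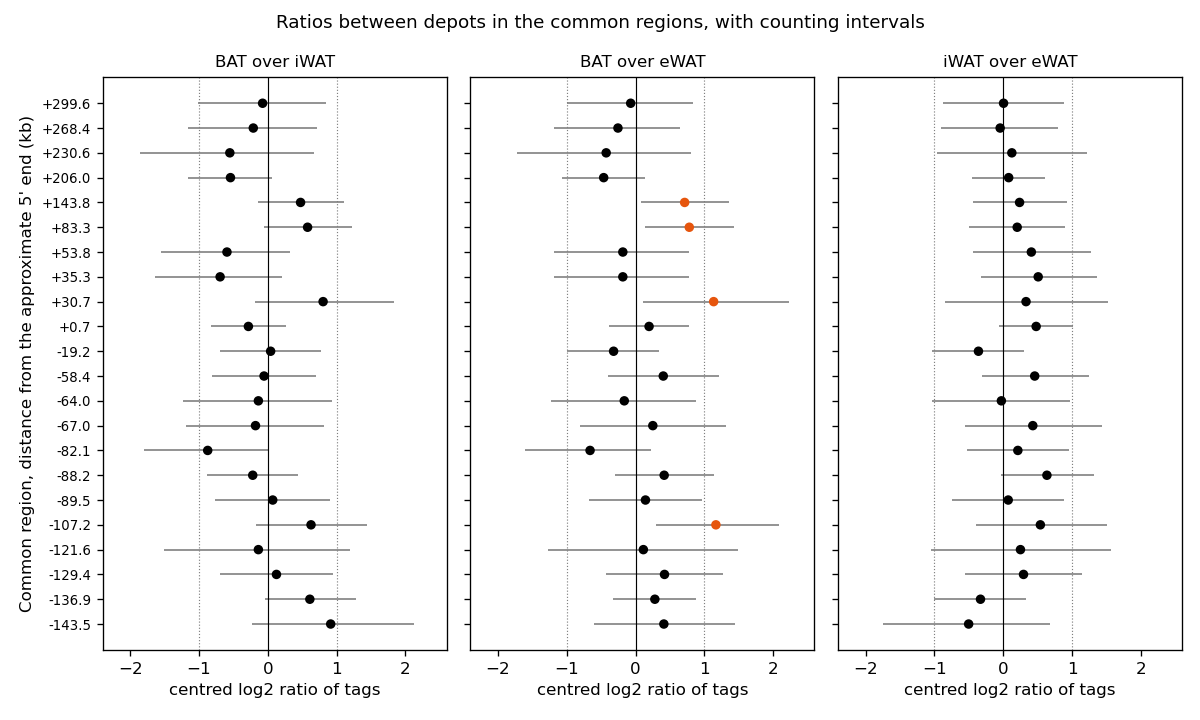
Centred log2 ratio of tags (x axis) in the 22 common regions, ordered by distance from the approximate 5′ end of Zfp608 (y axis, kb), for BAT over iWAT, BAT over eWAT and iWAT over eWAT, with exact 95% intervals for counting error as bars and dotted lines at 2-fold. Orange points mark intervals that leave out 0, and all 4 are in BAT over eWAT.

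The 2 regions past 2-fold lay on either side of the gene. At chr18:55042650-55042950, just beyond the 3′ end and 107 kb from the 5′ end, the site held 29.1 normalized tags (34 tags) in BAT, 23.6 (24) in iWAT and 10.7 (18) in eWAT. The centred log2 ratio of BAT over eWAT was 1.17 (interval 0.30 to 2.08), and the percentiles were 92.5, 81.3 and 59.7. At chr18:55180492-55180903, 30.7 kb upstream, the site held 20.6 normalized tags (24 tags) in BAT, 14.8 (15) in iWAT and 7.73 (13) in eWAT. There the ratio of BAT over eWAT was 1.14 (0.10 to 2.23), and the percentiles of 81.4, 54.6 and 30.4 made this the common region with the widest span. Its midpoints lay up to 189 bp apart, with the iWAT site set off from the others. The eWAT site stood only 4.1 times above its surroundings, and the deposited folds start at 4. The other 2 intervals above 0 belonged to the regions 83.3 kb upstream, with a ratio of 0.78 (0.14 to 1.44), and 144 kb upstream, with 0.71 (0.08 to 1.37).

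The next common region upstream of that at 30.7 kb, after a gap of 4194 bp at chr18:55185097-55185448, held 14.6 normalized tags in BAT, 29.6 in iWAT and 13.7 in eWAT. Its percentiles were 62.2, 89.3 and 75.6, so that BAT, the highest of the depots at the first region, was the lowest here. For BAT over iWAT the centred ratios were 0.80 (-0.19 to 1.84) at the first and -0.69 (-1.64 to 0.21) at the second, each with an interval that includes 0. The difference between the regions was not tested.

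In other regions with a wide span of ranks the order of the depots varied. The region at chr18:55380475-55380813, 231 kb upstream, held 10 tags in BAT, 16 in iWAT and 16 in eWAT, at percentiles 12.5, 59.1 and 50.1. The region at chr18:55006275-55006626, on the 3′ side, held 19, 11 and 17 tags, at percentiles 69.3, 29.0 and 55.2, so that here iWAT was lowest. In the gene, the region at chr18:55067786-55068039 held 17, 34 and 32 tags, at percentiles 62.2, 92.4 and 89.8. BAT was the lowest of the depots there, and the centred ratio of BAT over iWAT was -0.87 (interval -1.81 to 0.006). In each of these regions the intervals of all 3 pairs included 0, so the order of the depots is not settled beyond counting error.

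Summed over the 22 common regions, the libraries held 615 tags in BAT, 670 in iWAT and 642 in eWAT. After centring, BAT over iWAT was 0.002 on the log2 scale (interval -0.16 to 0.16), BAT over eWAT 0.19 (0.03 to 0.35) and iWAT over eWAT 0.19 (0.03 to 0.35). The centred ratios of single regions had an SD of 0.50 for BAT over iWAT, 0.50 for BAT over eWAT and 0.30 for iWAT over eWAT. Summed over all listed sites of the locus instead, there were 780 tags in BAT, 966 in iWAT and 847 in eWAT, and the order of the depots differed. BAT over iWAT was then -0.18 (-0.32 to -0.05), BAT over eWAT 0.13 (-0.01 to 0.27) and iWAT over eWAT 0.32 (0.18 to 0.45). This sum moves with the number of sites listed, 29 in BAT, 40 in iWAT and 31 in eWAT. Over the common regions alone, with the top 50% of each list the intervals of BAT over eWAT (0.097, -0.07 to 0.27) and of iWAT over eWAT (0.14, -0.03 to 0.30) included 0. In the gene body alone both did so too (0.016, -0.28 to 0.31, and 0.19, -0.09 to 0.48). Limited to sites at least 6 times above the surroundings, iWAT over eWAT did so (0.17, -0.02 to 0.36). Under the other settings the intervals of both pairs left out 0.

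Some of the strongest sites were listed in exactly 2 depots. About 161 kb upstream lay a pair of regions 200 bp apart. The first, at chr18:55310564-55310802, held 62.5 normalized tags in BAT, its strongest site in the locus at rank 157, and 29.7 in eWAT, at percentiles 99.7 and 98.0. The second, at chr18:55311002-55311245, held 52.2 in iWAT and 30.3 in eWAT, at percentiles 98.5 and 98.1. Thus all 3 depots listed a site in the top 3% of their lists within this stretch, BAT on one side, iWAT on the other and eWAT on both. In tags, BAT had 73 at the first and iWAT 53 at the second, and eWAT 50 and 51. The midpoints of the BAT and iWAT sites were 459 bp apart.

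A like place lay 50.2 kb upstream. There BAT and eWAT listed a region at chr18:55200132-55200362, with 20.6 and 15.5 normalized tags (percentiles 81.4 and 82.0). iWAT listed a site of 24.6 normalized tags (percentile 82.9) at chr18:55200482-55200704, a gap of 120 bp away, which counts as a region of iWAT alone. The midpoints of the iWAT site lay 350 bp from that of BAT and 341 bp from that of eWAT. The closest midpoints within a list were 397 bp apart in BAT, 357 bp in iWAT and 361 bp in eWAT, so no list holds a pair of sites as close as these. The lists thus record either side of this place but never both, and the part of this spacing in the result was not tested. When sites within 200 bp were merged, both places became common, and the locus had 24 common regions instead of 22.

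**Figure D5:**
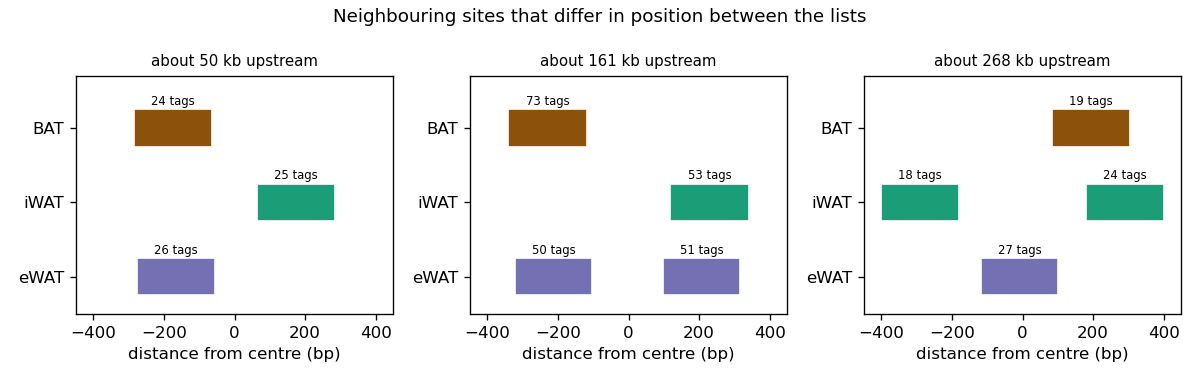
Sites of BAT, iWAT and eWAT (rows, bars drawn to scale with their tags) at 3 places about 50, 161 and 268 kb upstream of Zfp608, by distance from the centre of the place (x axis, bp). At 161 kb BAT lists one side with 73 tags, iWAT the other with 53, and eWAT both with 50 and 51.

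Sites of a single list were mostly weak and mostly from iWAT. Of the 12 such regions, 10 were in iWAT, 1 in BAT and 1 in eWAT. Single-list regions make up 25.0% of the iWAT sites of the locus, 3.45% of the BAT sites and 3.23% of the eWAT sites, where the whole lists have 32.1%, 23.5% and 32%. The 10 iWAT sites had a median of 10.5 tags (range 8 to 25), and 7 of them were below percentile 50. None lay in the gene body, 8 lay upstream and 2 at the far 3′ side. The iWAT list was also the longest, and with lists limited to equal length the numbers were 2 in BAT, 5 in iWAT and 0 in eWAT. With an overlap of at least 50% of the site required, they were 3, 15 and 5. A site below the threshold of a list is not in it, so a missing site may still be open.

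The iWAT sites above percentile 75 among them numbered 2. One is the site 50.6 kb upstream described above, which lay 120 bp from an eWAT site. The other, at chr18:55247202-55247424, 97.3 kb upstream, held 21.7 normalized tags (22 tags, percentile 77.4), 17.0 times above its surroundings. The region nearest to it was the common one 13.8 kb away, and of the 2 it alone had no site of another depot within 1000 bp. The BAT site, at chr18:55068458-55068680, held 10 tags and lay 419 bp from a common region. The eWAT site, at chr18:55077772-55077992, held 11 tags, and it was the site of the gene body farthest from any other list.

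Among the other regions of exactly 2 lists, BAT lacked a site at a pair in the first part of the gene that both white depots listed, 11.8 and 11.1 kb from the 5′ end. At chr18:55137979-55138381 iWAT held 21.7 normalized tags and eWAT 7.73, at percentiles 77.4 and 30.4. At chr18:55138682-55139087 iWAT held 13.8 and eWAT 7.14, at percentiles 49.4 and 21.7. By pair of lists, 3 regions of the locus were in BAT and iWAT, 3 in BAT and eWAT and 5 in iWAT and eWAT. These are 6.67%, 6.67% and 11.1% of the regions, against 6.73%, 5.32% and 11.3% in the whole series.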

How the data were processed

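DNase-seq sites of 1 library each from BAT-, iWAT- and eWAT-derived fat cells were used as deposited. Per the submitters' processing notes STAR, HOMER and mm9 were used; roles, versions and settings are not given in the sources used here. Per the file headers the authors give each site a normalized tag count (a signal relative to an unstated library total), a focus ratio (a fraction), a findPeaks score, a fold (ratio) over the local surroundings, the p-value of that fold, and the clonal fold. The deposited folds start at 4, so sites in tag-rich surroundings can be missing. DNase I was used at 120 U/ml, per the labels' protocols.

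Sites overlapping or touching were merged; a site was found in another list at an overlap of at least 1 bp. Tags are steps of the normalized tag count, and among values under 30 the share that were whole multiples (within the rounding of the file) was 100% in each list. Ratios were centred on all common regions with 1 site per list. Intervals of shares and ratios are exact (Clopper-Pearson) at 95% and cover counting error only, since there was 1 library per depot. The intervals of ratios take tags as independent. PCR copies are not independent molecules, so these intervals may be too narrow. The regions named were the 10 common ones with the highest mean percentile, the 5 with the widest span, those past 2-fold with an interval that leaves out 0, strong regions of exactly 2 lists, strong single-list regions (or the highest) and that nearest the 5′ end; the region at 55185097, the window's edges, the chained region at 55418184 and the pair in the first part of the gene were added after their values were seen. The window, the gene's position (taken as given, with no mm9 annotation used here) and these rules were chosen with earlier results of these data known. The code was tested on simulated data. Python 3.11.15, numpy 2.4.6, pandas 2.3.3, scipy 1.17.1 and matplotlib 3.10.9 were used.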

Additional observations from a re-analysis of the deposited data

How the results depend on the processing

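No paired analysis was possible because each depot has 1 library. Of 150 values recomputed under 10 settings, 126 stayed within 1.5 times the count or within the interval of the main value, and 24 moved. For median rank percentiles this was an interval of the median over the locus sites, which are not replicates. It was wide (in iWAT 54.6 to 86.0), so only a large shift would count as moved. A reversal of sign was counted only for ratios whose main interval left out 0, and 0 were found. The summed ratio of BAT over iWAT, whose main interval includes 0, changed sign under some settings. In the gene body alone (-0.18) it also lay outside that interval. The numbers of single-list regions moved most. With an overlap of at least 50% of the site they were 3 in BAT, 15 in iWAT and 5 in eWAT, and 55.2% of BAT sites were found in both other lists. When the lists were made equally long they were 2 in BAT, 5 in iWAT and 0 in eWAT. With the top 50% of each list they were 0 in BAT, 4 in iWAT and 0 in eWAT. Limited to sites at least 6 times above the surroundings, they were 3 in BAT and 0 in eWAT, and common regions numbered 14. With the same lowest score in all lists (8.87 normalized tags, added after seeing the data) the number in eWAT was 0. That setting kept all 63214 iWAT sites, but 42606 of the 48308 BAT sites and 39039 of the 60974 eWAT sites. In a window of the gene and 100 kb on both sides, iWAT had 24 sites, 4 single-list regions and 70.8% of sites in both other lists. In the gene body alone BAT had 8 sites, iWAT 9 and eWAT 10, with 7 common regions; iWAT had 0 single-list regions and 77.8% of sites in both other lists, and the summed log2 ratio was -0.18 for BAT over iWAT and 0.016 for BAT over eWAT. Smaller windows and shorter lists hold fewer sites by construction; otherwise the cause was not tested. Depth limits single regions: at 10 to 30 tags the counting interval of a ratio spans over 2-fold.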
